A study of Homo sapiens with 12 samples.

Results

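The Iroquois homeobox family was examined across the early neural differentiation of H9, an established line of human embryonic stem cells. Its members were taken by name alone, as the 6 genes IRX1 to IRX6 among the 58219 gene identifiers of the table. The study compared wild-type H9 cells with H9 cells labelled SOX21-/- to examine what SOX21 does when stem cells become neural. SOX21 is a transcription factor of the SOXB2 group that is found in neural progenitors. Poly(A) RNA was collected at day 0, when the cells were undifferentiated stem cells, and at days 4 and 8 of neural differentiation. Each of the 6 groups had 2 libraries: WT1 and WT2 were wild type, and S13 and S23 carried the label SOX21-/-. How the SOX21 alleles were changed, whether S13 and S23 are separate clones, and whether the libraries of a group came from separate cultures are unknown from the sources used here. The p-values below therefore measure only the spread between these libraries, which may be technical. Values are TPM, the share of transcripts that belongs to a gene, corrected for gene length and scaled to the same total in every library.

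Iroquois proteins are transcription factors of the TALE homeobox class that bind DNA through their homeodomain. They are known for dividing the neural plate into regions and for promoting proneural gene expression, and the same genes pattern the heart, the limb, the eye and the lung. In the vertebrate forebrain Iroquois genes are typical of tissue caudal to the future border inside the diencephalon, whereas SIX3 and its relatives mark the tissue rostral to it.

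The 6 genes lie in 2 clusters of 3 genes (GENCODE v29, GRCh38). The IRXA cluster spans 1.72 Mb of chromosome 5. It holds IRX4 at chr5:1877413-1887236 on the minus strand, IRX2 at chr5:2745845-2751662 on the minus strand and IRX1 at chr5:3596054-3601403 on the plus strand. The IRXB cluster spans 1.05 Mb of chromosome 16. It holds IRX3 at chr16:54283304-54286763 on the minus strand, IRX5 at chr16:54930862-54934485 on the plus strand and IRX6 at chr16:55323760-55330760 on the plus strand. All 6 are protein-coding, and the identifiers of the table matched this annotation for each of them, version included. IRX1P1, a gene named as an IRX1 pseudogene, was listed at 0 in all 12 libraries.

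**Figure D1:**
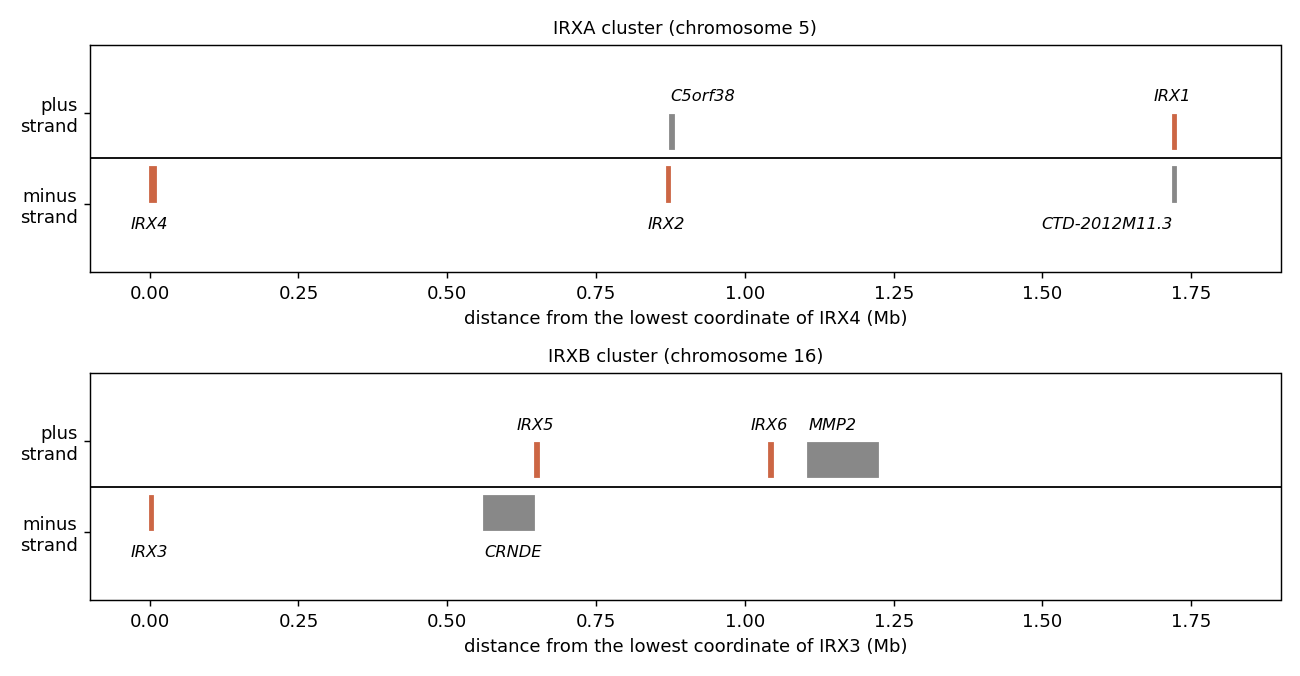
Positions of the Iroquois genes (orange) and of the neighbouring genes named in the text (grey) in the IRXA cluster and the IRXB cluster. The x axis is the distance in Mb from the lowest coordinate of IRX4 or IRX3, and genes above the line are on the plus strand; CTD-2012M11.3 lies over IRX1 on the other strand, and CRNDE starts close to the start of IRX5 and runs the other way.

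The 250 bases before the transcription start of IRX1 and of IRX2 are shown because these 2 genes had the highest levels of the family and both fell from day 4 to day 8 in the libraries labelled SOX21-/-. They are RefSeq sequences on GRCh38.p14, written 5′ to 3′ on the strand of the gene, for chr5:3595582-3595831 on the plus strand (IRX1) and chr5:2751678-2751927 on the minus strand (IRX2). The capitals mark TCAAAG, the reverse complement of the TCF/LEF core CTTTGA, through which WNT signalling is known to act.
IRX1: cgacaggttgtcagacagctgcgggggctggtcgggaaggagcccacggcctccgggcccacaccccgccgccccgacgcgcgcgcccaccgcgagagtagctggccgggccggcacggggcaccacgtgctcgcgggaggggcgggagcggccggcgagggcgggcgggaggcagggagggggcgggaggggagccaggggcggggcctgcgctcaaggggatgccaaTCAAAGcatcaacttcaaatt
IRX2: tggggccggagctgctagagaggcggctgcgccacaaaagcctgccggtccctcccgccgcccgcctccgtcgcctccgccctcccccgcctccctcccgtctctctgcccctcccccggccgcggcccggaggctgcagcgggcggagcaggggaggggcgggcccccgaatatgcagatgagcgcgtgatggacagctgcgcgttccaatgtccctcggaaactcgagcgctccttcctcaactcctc
Both windows are rich in G and C, at 75.2% for IRX1 and 72.8% for IRX2, against a median of 58.0% over 35116 promoters. They hold 29 CpG dinucleotides for IRX1 and 27 for IRX2. The motif in capitals lies 21 to 16 bases before the RefSeq start of IRX1 at chr5:3595832. That start lies upstream of the GENCODE v29 start at chr5:3596054, so the position depends on the annotation. Of all promoters, 11.2% hold CTTTGA on either strand. A CCAAT box lies 25 to 21 bases before the IRX1 start, where it shares 1 base with the TCAAAG. Another lies 43 to 39 bases before the IRX2 start, and 32.0% of all promoters hold this motif. The SOX cores ACAATG (in 9.29% of promoters) and ACAAAG (13.7%), the palindrome ACANNTGT that Iroquois proteins are known to bind (4.71%) and the TATA core TATAAA (10.7%), searched on both strands, had no match in either window. Such a match or its absence describes these letters only. In all, 3 of the 6 members (IRX1, IRX2 and IRX4) were matched in the promoter table, and the 3 IRX4 windows held none of the 6 motifs. The far end of the IRX2 window reaches into the first bases of IRX2-DT. This transcript starts 216 bases from the RefSeq start of IRX2 and runs in the opposite direction. C5orf38, described below with a GENCODE start 469 bases from IRX2, lies on the same strand as IRX2-DT, so both names may refer to the same gene.

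SOX21 mRNA was present in every library labelled SOX21-/-, and no genotype difference in it passed the test at any day. It was 1.26 and 1.39 TPM in wild type against 1.62 and 1.84 TPM for S13 and S23 at day 0. At day 4 it was 156 and 166 TPM against 162 and 143 TPM, and at day 8 it was 129 and 100.04 TPM against 253 and 69.9 TPM. S23 was thus below both wild-type libraries at days 4 and 8 and S13 was not, and the log2 differences were 0.23, -0.085 and 0.23 (limma adjusted p = 1, 1 and 0.898). The table sums reads over the whole gene, so these values do not show whether SOX21 protein was made, and the genotype rests on the labels. Stem cell and neural genes moved with the day: 9 pluripotency genes summed to 2631 to 2819 TPM at day 0 and to 760 to 897 TPM at day 8, of which LIN28A, which was higher at days 4 and 8 than at day 0, made up 608 to 701 TPM, and 9 neural progenitor genes to 120 to 125 TPM and then 1711 to 2239 TPM. The day 0 libraries stood apart, since nuclear protein-coding genes took 55.9% to 56.4% of their TPM but 83.5% to 87.1% at the later days, and they had 15347 to 15490 genes at 1 TPM or more against 17586 to 19834. This difference moves every comparison between day 0 and a later day, because TPM is a share of a fixed total.

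The summed level of the family was higher at days 4 and 8 than at day 0 on the TPM scale, and higher in the libraries labelled SOX21-/- than in wild type. Its 6 genes summed to 10.5 and 8.64 TPM in wild type and to 11.9 and 11.5 TPM for S13 and S23 at day 0. At day 4 the sums were 26.5 and 23.9 TPM in wild type against 65.3 and 56.4 TPM, and at day 8 they were 18.8 and 22.0 TPM against 33.2 and 28.3 TPM. The groups did not overlap at any day, and the ratio of the means was 1.23 at day 0, 2.41 at day 4 and 1.51 at day 8. In bulk RNA, more cells that express these genes and more RNA in each such cell cannot be told apart.

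**Figure D2:**
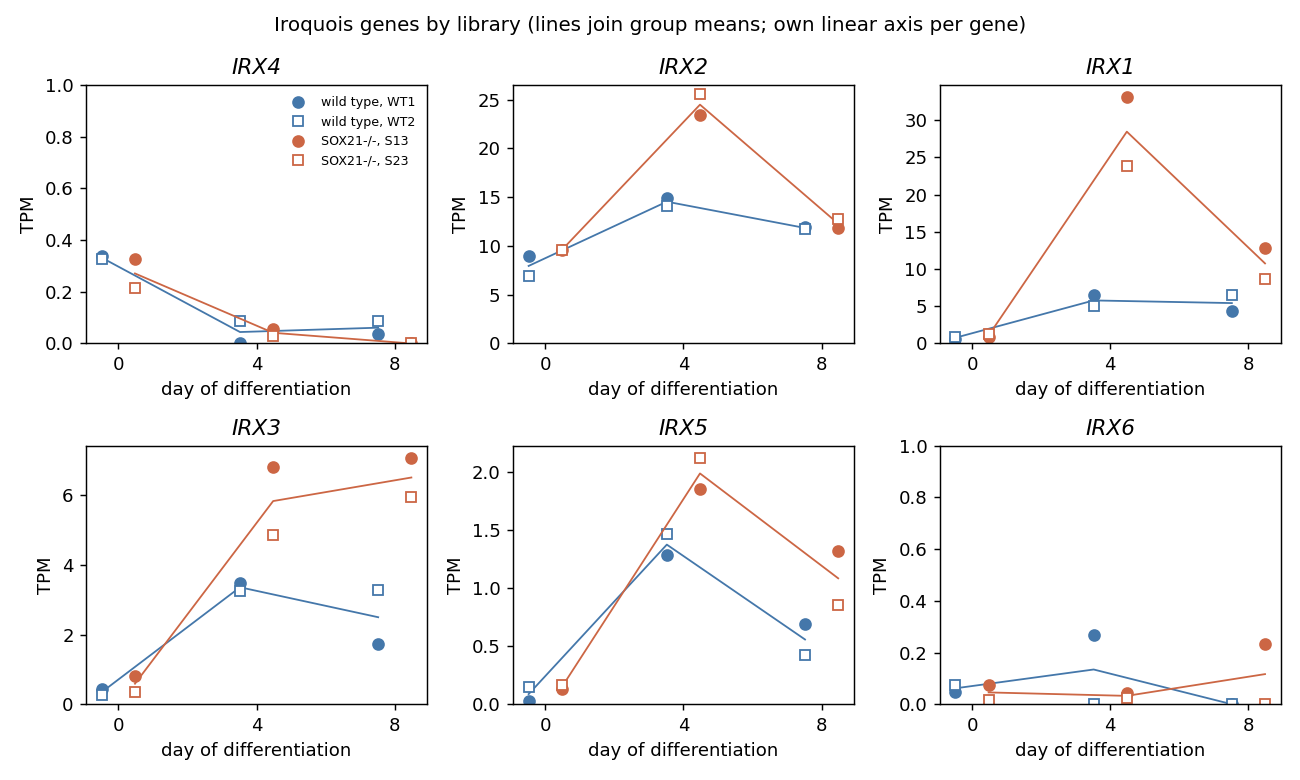
TPM of each Iroquois gene in the 12 libraries by day of differentiation, with wild type in blue, SOX21-/- in orange, a symbol for each line label and lines through the group means. IRX1 and IRX2 peak at day 4 in S13 and S23 at 33.1 and 23.8 TPM and at 23.4 and 25.6 TPM, while IRX4 and IRX6 stay under 1 TPM everywhere.

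With 1 TPM or more in 2 or more libraries, IRX1, IRX2, IRX3 and IRX5 entered the limma test on log2(TPM + 1) among 24248 genes, and IRX4 and IRX6 were too low for it. A fold change on this scale understates that of low genes. A gene was called at an adjusted p under 0.05. At day 0, 0 of the 4 tested members were called between the genotypes and 0 had an unadjusted p under 0.05, where 0.384% of all genes were called. At day 4, 1 of 4 was called, IRX1, which was higher in S13 and S23, against 0.775% of all genes, and 3 of 4 had an unadjusted p under 0.05. At day 8, 0 of 4 were called against 2.79% of all genes, and 2 of 4, IRX1 and IRX3, had an unadjusted p under 0.05. The median log2 fold change of the 4 was 0.23 at day 0, 0.67 at day 4 and 0.64 at day 8, beside medians over all genes of 0, -0.12 and 0. Counted without a test, both S13 and S23 lay above both wild-type libraries in 2 of the 4 genes at day 0 (15.7% of all genes tested), in 4 of 4 at day 4 (11.1%) and in 3 of 4 at day 8 (21.4%).

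**Figure D3:**
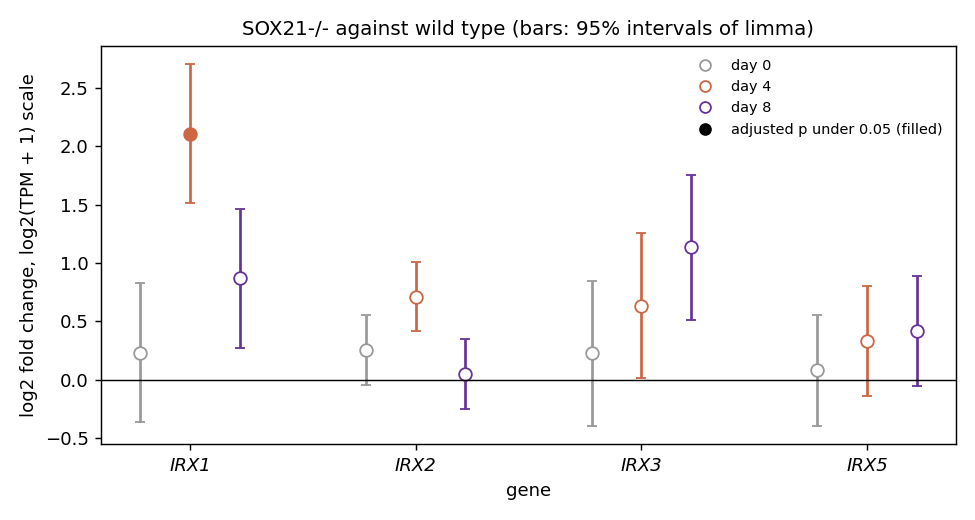
Log2 fold change of SOX21-/- against wild type for the 4 tested Iroquois genes at days 0, 4 and 8, with the 95% interval of limma as bars and filled symbols for an adjusted p under 0.05. All 12 estimates lie above 0, from 0.048 for IRX2 at day 8 to 2.11 for IRX1 at day 4, the single filled symbol.

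IRX1, a gene of neural plate and placode patterning, had the largest genotype difference of the tested members at day 4. IRX3 had the largest at day 8 on the log2 scale. At day 0 no member was called and the order depended on the scale: IRX2 had the largest log2 difference but the smallest ratio of means, 1.21. The levels of IRX1 were 0.644 and 0.903 TPM in wild type and 0.928 and 1.23 TPM for S13 and S23 at day 0. At day 4 they were 6.54 and 5.03 TPM in wild type and 33.1 and 23.8 TPM for S13 and S23, means of 5.79 ± 1.07 and 28.5 ± 6.59 (SD, n = 2). At day 8 they were 4.41 and 6.45 TPM in wild type and 12.8 and 8.72 TPM for S13 and S23. Both SOX21-/- libraries lay above both wild-type libraries at each day, by little at day 0, and S13 was above S23 at the later days. The day 4 means stood in a ratio of 4.92 and the day 8 means in a ratio of 1.98. The day 4 difference was 2.11 on the log2 scale (SE 0.26, limma adjusted p = 0.0187), with a place of 41 among all genes ordered by p. The day 8 difference was 0.87 (SE 0.26, 95% interval 0.27 to 1.46) and did not pass, with a limma adjusted p of 0.133.

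The day 4 call of IRX1 rested on few libraries. In limma fits without WT1, WT2 or S13 of day 4 the log2 fold change was 2.27, 1.95 and 1.88 with adjusted p of 0.0785, 0.108 and 0.0710, where the single library left in its group is taken to vary like the other groups. With only the day 4 libraries in the limma fit the adjusted p was 0.241. Over all 22 alternatives the log2 fold change ran from 1.88 to 2.34 and the limma adjusted p from 0.00875 to 0.241, and 18 kept the call. Of these alternatives 12 left out a library, and leaving out a library of day 0 or day 8 cannot move this fold change. The antisense gene CTD-2012M11.3, which overlaps IRX1, was listed at 0 in all 8 libraries of days 4 and 8. At day 0 it had 2.06 and 2.17 TPM in wild type and 2.47 and 1.13 TPM for S13 and S23, above IRX1 in 3 of the 4 libraries. The sources used here do not say whether the counting used strand, and at day 0 reads of IRX1 and of its antisense partner cannot be told apart.

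IRX1 rose from day 0 to day 4 in both genotypes, by 1.93 in wild type (SE 0.26, limma adjusted p = 0.000198) and by 3.81 in S13 and S23 (limma adjusted p = 4.03e-06) on the log2 scale. The ratio of the day means was 7.48 in wild type and 26.3 in the libraries labelled SOX21-/-. It then fell in S13 and S23 by 1.33 (SE 0.26, limma adjusted p = 0.00794), while the wild-type difference between day 4 and day 8 was -0.087 (95% interval -0.68 to 0.51, limma adjusted p = 0.907). Without S13 of day 4 the fall was 1.10 with a limma adjusted p of 0.0522, and without S23 of day 8 it was 1.08 with 0.0526, both outside the threshold, over alternatives from 0.00372 to 0.0526. In the order of the 6 group means, SOX21-/- at day 4 stood first and SOX21-/- at day 8 second. Wild type at days 4 and 8 followed with overlapping ranges, and both day 0 groups came last.

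IRX2, the neighbour of IRX1 and also a gene of the neural plate, was the most abundant member in undifferentiated cells. It was 8.98 and 6.93 TPM in wild type and 9.62 and 9.55 TPM for S13 and S23 at day 0, which was 80.3% to 85.7% of the family's TPM. At day 4 it was 15.0 and 14.1 TPM in wild type and 23.4 and 25.6 TPM for S13 and S23, and at day 8 it was 11.98 and 11.7 TPM against 11.8 and 12.8 TPM. The genotypes were apart at day 4 and overlapped at day 8. The day 4 means, 14.5 ± 0.602 and 24.5 ± 1.54 (SD, n = 2), had a ratio of 1.68. The log2 difference was 0.71 (SE 0.13, 95% interval 0.41 to 1.01) and missed the threshold with a limma adjusted p of 0.0578, which ran from 0.0380 to 0.261 over 22 alternatives, 4 of them under 0.05. At day 4 the median of all genes moved from -0.12 on the TPM scale to 0 with median-of-ratios scaling, under which the log2 difference of IRX2 was 0.86 and that of IRX1 was 2.21. At day 8 the log2 difference was 0.048, with a 95% interval from -0.25 to 0.35.

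From day 4 to day 8 IRX2 fell in S13 and S23 by 0.94 on the log2 scale (SE 0.13, limma adjusted p = 0.00191), a call that all 22 alternatives kept. The wild-type difference over the same days was -0.27 (limma adjusted p = 0.218), with day 8 below day 4 in both libraries. From day 0 to day 4 it was higher by 0.80 in wild type (SE 0.13, limma adjusted p = 0.000623) on the TPM scale, but -0.52 when scaled by the median of ratios and -0.18 when quantile normalized, so its direction depends on the scaling. In S13 and S23 the same step was 1.27 (limma adjusted p = 4.36e-05) on the TPM scale and 0.11 (limma adjusted p = 0.547) with median-of-ratios scaling.

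IRX3, which is known to take part in caudal forebrain and neural tube patterning in opposition to SIX3, had its largest genotype difference at day 8. It was 0.445 and 0.254 TPM in wild type and 0.818 and 0.361 TPM for S13 and S23 at day 0, where the groups overlapped. At day 4 it was 3.47 and 3.25 TPM against 6.80 and 4.87 TPM, and at day 8 it was 1.72 and 3.28 TPM against 7.08 and 5.94 TPM. Both SOX21-/- libraries were above both wild-type libraries at days 4 and 8. The day 8 means were 2.50 ± 1.10 and 6.51 ± 0.810 (SD, n = 2), a ratio of 2.61, and the day 4 means had a ratio of 1.74. The log2 difference was 1.13 at day 8 (SE 0.27, 95% interval 0.51 to 1.76) with a limma adjusted p of 0.0718, and 0.63 at day 4 with a limma adjusted p of 0.286, so neither passed. With nuclear protein-coding genes only, the day 8 difference was 1.16 with a limma adjusted p of 0.0498, in a range of 0.0498 to 0.339 over the 22 alternatives.

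IRX3 rose from day 0 to day 4 in wild type by 1.69 (SE 0.27, limma adjusted p = 0.000576) and in S13 and S23 by 2.10 (limma adjusted p = 0.000170) on the log2 scale. The ratio of the means was 9.61 in wild type and 9.89 in the libraries labelled SOX21-/-. From day 4 to day 8 the differences were -0.35 in wild type (limma adjusted p = 0.454) and 0.15 in S13 and S23 (limma adjusted p = 0.757), the latter with a sign that turned under both median-of-ratios scaling (-0.059) and quantile normalization (-0.25). The SOX21-/- groups of days 8 and 4 stood first and overlapped each other. The wild-type groups of days 4 and 8 came next and overlapped, and the day 0 groups came last.

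IRX5, the neighbour of IRX3 with known roles in the retina, heart and limb, stayed low. It was 0.0290 and 0.145 TPM in wild type and 0.127 and 0.167 TPM for S13 and S23 at day 0. At day 4 it was 1.28 and 1.46 TPM against 1.85 and 2.12 TPM, and at day 8 it was 0.691 and 0.423 TPM against 1.31 and 0.852 TPM. The groups overlapped at day 0 and were apart at days 4 and 8, with ratios of the means of 1.45 and 1.94. The log2 differences, 0.33 at day 4 (95% interval -0.14 to 0.80) and 0.42 at day 8 (95% interval -0.058 to 0.89), did not pass, with limma adjusted p of 0.469 and 0.379. IRX5 rose from day 0 to day 4 by 1.13 in wild type (SE 0.21, limma adjusted p = 0.00128) and by 1.38 in S13 and S23 (limma adjusted p = 0.000431). From day 4 to day 8 it was lower in both genotypes, by -0.61 (limma adjusted p = 0.0936) and -0.53 (limma adjusted p = 0.0984), and neither passed. In the order of the means SOX21-/- at day 4 stood first, wild type at day 4 and SOX21-/- at day 8 overlapped, and wild type at day 8 preceded the overlapping day 0 groups.

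IRX4, best known for its part in the ventricles of the heart, had its highest level at day 0. It was 0.338 and 0.325 TPM in wild type and 0.327 and 0.215 TPM for S13 and S23 at day 0, and 0 to 0.0886 TPM in the 8 later libraries, 3 of which listed it at 0. In the fit with no filter on low values, over 41105 genes, IRX4 fell from day 0 to day 4 by 0.35 in wild type (limma adjusted p = 0.00318) and by 0.29 in S13 and S23 (limma adjusted p = 0.0103) on the log2(TPM + 1) scale. IRX6, known from the retina, ranged from 0 to 0.269 TPM and was listed at 0 in 4 libraries, and the genotypes overlapped at each day. IRX4 was listed at 0 in S13 and S23 at day 8, below the 0.0371 and 0.0851 TPM of wild type, and in that fit no genotype difference of IRX4 or IRX6 passed at any day. The number of reads behind these low values is unknown.

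The day steps were tested within each genotype. From day 0 to day 4, 4 of 4 were called higher in wild type, where 65.7% of all genes were called in either direction, and 4 of 4 were called higher in S13 and S23, where 60.6% were called. With median-of-ratios scaling 3 were called higher in each genotype and 1, IRX2, lower in wild type. IRX1, IRX3 and IRX5 passed the filter through libraries of days 4 and 8, where they had to be higher, and with no filter the count was 4 higher and 1, IRX4, lower of 6 in each genotype. Their median log2 fold changes were 1.41 and 1.74, beside medians over all genes of 0.91 and 0.72. Of the 24248 genes tested, 13177 were called higher in wild type and 11664 in S13 and S23. With so many genes called, and with the day 0 libraries apart in their protein-coding share, these counts alone do not set the members apart. From day 4 to day 8, 0 of 4 were called in wild type against 12.6% of all genes, with 1 of 4, IRX5, at an unadjusted p under 0.05. In S13 and S23, 2 of 4, IRX1 and IRX2, were called lower over these days, where 26.1% of all genes were called in either direction. Of the 24248 genes tested, 1733 were called lower and 4603 higher in that step. The medians of the 4 were -0.31 and -0.73, beside medians over all genes of 0.028 and 0.20.

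On the log2(TPM + 1) scale IRX2 moved more with the scaling than IRX1, IRX3 and IRX5 did. Those genes were lower at day 0, and this scale understates the shifts of low genes. In wild type the median of all genes between days 0 and 4 moved from 0.91 on the TPM scale to 0.55 with protein-coding genes only, 0.26 with quantile normalization and 0.031 with median-of-ratios scaling. That of S13 and S23 from day 4 to day 8 moved from 0.20 to 0.016 with median-of-ratios scaling. For days 0 to 4, IRX1, IRX3 and IRX5 lay above the median of all genes under each of these scalings and were called higher in both genotypes. For IRX1 the wild-type value ran from 1.04 to 2.76 over all 22 alternatives and for IRX3 from 0.97 to 2.98. For IRX5 it ran from 0.59 to 3.05 over 21. IRX2 lay below the median of all genes in wild type under each of the 4 scalings. In S13 and S23 it lay above that median, at 1.27 against 0.72 on the TPM scale and 0.11 against 0 with median-of-ratios scaling.

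**Figure D4:**
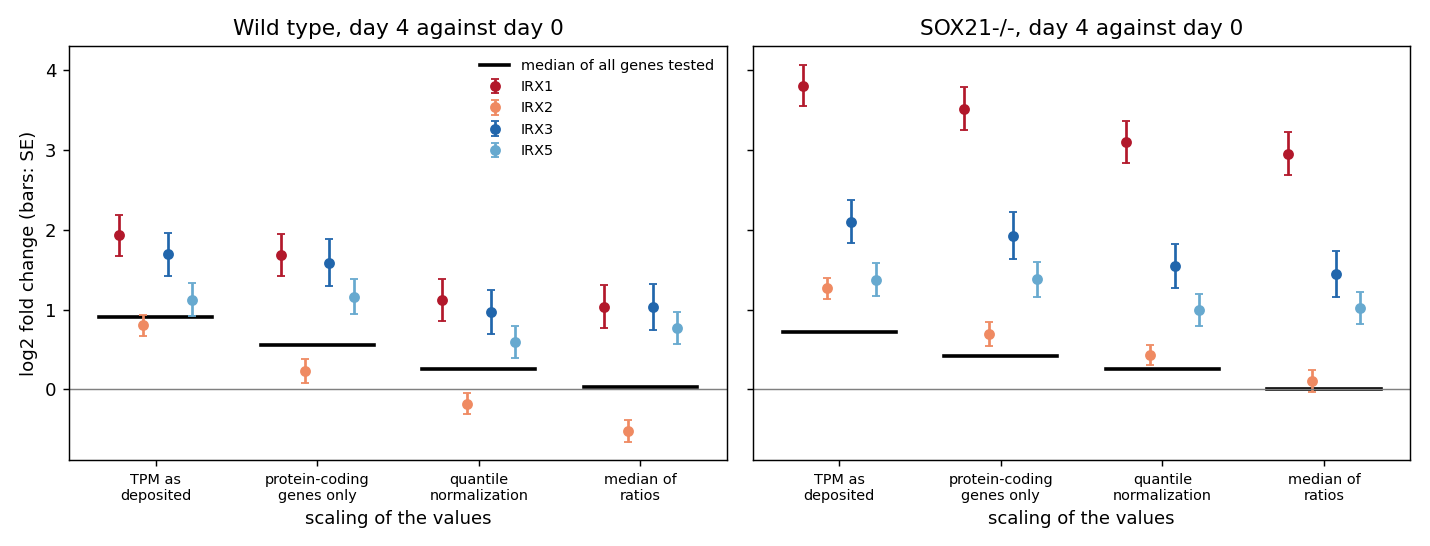
Log2 fold change from day 0 to day 4 of IRX1, IRX2, IRX3 and IRX5 (bars: SE) under 4 scalings of the values, in wild type and in SOX21-/-, with the median of all genes tested as a black line. IRX1, IRX3 and IRX5 stay above the line in both panels, and IRX2 in wild type lies below it, from 0.80 as deposited to -0.52 with median of ratios.

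Whether the genotype difference itself changed with time was tested as an interaction. From day 0 to day 4, 0 of 4 members were called against 0.408% of all genes, with 2 of 4, IRX1 and IRX2, at an unadjusted p under 0.05. From day 4 to day 8, 0 of 4 were called against 1.11% of all genes, again with IRX1 and IRX2 at an unadjusted p under 0.05. The genotype difference of IRX1 grew by 1.88 over the first step (SE 0.37, 95% interval 1.04 to 2.72, limma adjusted p = 0.109) and changed by -1.24 over the second (SE 0.37, limma adjusted p = 0.149). That of IRX2 changed by 0.46 (limma adjusted p = 0.375) and then by -0.67 (limma adjusted p = 0.129), and that of IRX3 by 0.41 (limma adjusted p = 0.733) and 0.50 (limma adjusted p = 0.588). For IRX5 the changes were 0.25 and 0.086. A day 4 call for IRX1 without a day 8 call is therefore not shown to be a difference between the days.

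The make-up of the family also differed between the genotypes, and these shares are given as a description with no test. At day 4 the IRXA genes made up 81.1% and 80.3% of the family's TPM in wild type and 86.7% and 87.6% in S13 and S23. At day 8 the order was the reverse, with 87.2% and 83.2% in wild type against 74.0% and 76.0%. The genotypes did not overlap at either day, and at day 0, with 91.4% to 95.3%, they did. IRX1 alone was 24.7% and 21.01% of the family in wild type and 50.7% and 42.2% in S13 and S23 at day 4.

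Ratios between members within a library do not change when all its values are divided by the same factor, as in median-of-ratios scaling. Quantile normalization can change them. The IRX1 to IRX2 ratio at day 4 was 0.437 and 0.356 in wild type against 1.42 in S13 and 0.931 in S23. The day 8 ratio was 0.368 and 0.551 against 1.09 and 0.682. So IRX1 was below IRX2 in each wild-type library and in S23 at both days, and above it in S13. The IRX3 to IRX1 ratio was 0.530 and 0.646 in wild type against 0.205 and 0.204 at day 4, and 0.391 and 0.508 against 0.553 and 0.681 at day 8, so that its order turned between the days. The IRX5 to IRX1 ratio was 0.196 and 0.291 in wild type against 0.0558 and 0.0890 at day 4, and the genotypes overlapped at day 8. The IRX3 to IRX5 ratio overlapped between the genotypes at each day.

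**Figure D5:**
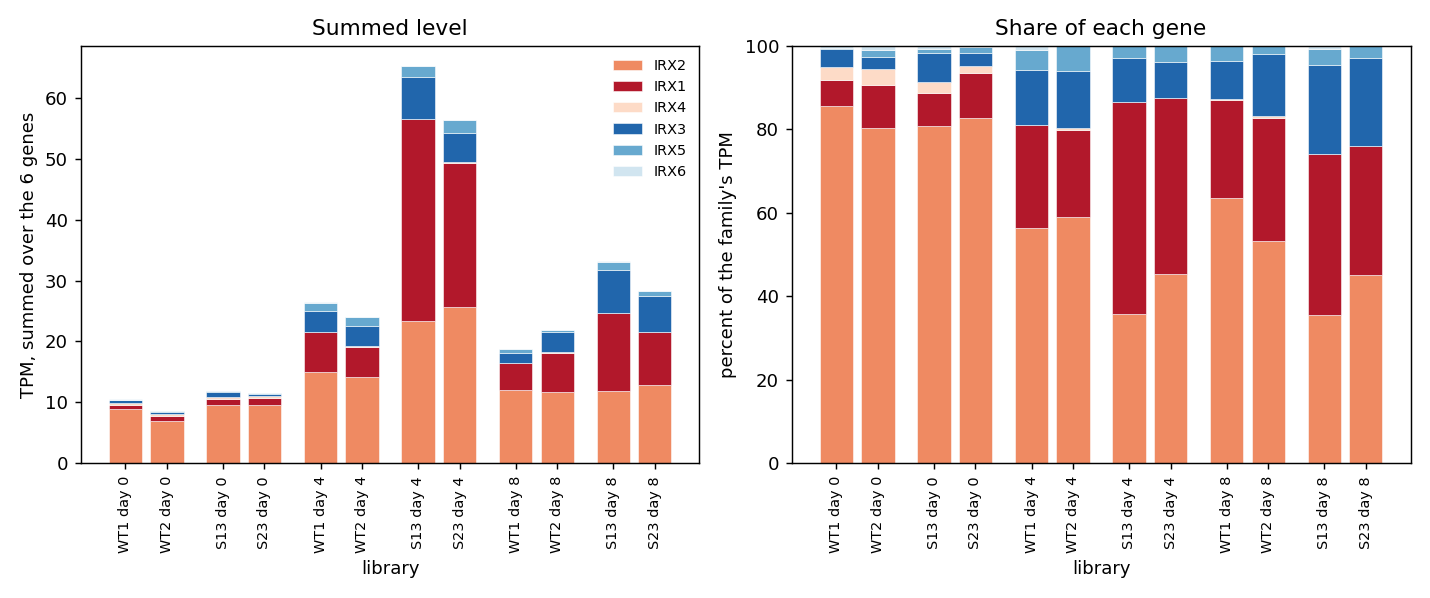
Summed TPM of the 6 Iroquois genes (left) and the percent of that sum from each gene (right) in each of the 12 libraries, with IRXA genes in reds and IRXB genes in blues. The bars of S13 and S23 at day 4 are the tallest at 65.3 and 56.4 TPM, and IRX1 fills 50.7% and 42.2% of them.

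A single gene near the clusters was called between the genotypes. Of 72 genes within 500 kb of a member, 21 were tested, and 0 were called higher and 1 lower at day 4 and again at day 8, against 0.775% and 2.79% of all genes. The gene was MMP2, a secreted matrix metalloproteinase that lies 58940 bases beyond IRX6. It had 33.7 and 38.2 TPM in wild type and 21.1 and 19.1 TPM for S13 and S23 at day 4, and 24.0 and 27.0 TPM against 15.4 and 12.2 TPM at day 8. Its log2 differences were -0.81 (SE 0.13, limma adjusted p = 0.0443) and -0.85 (SE 0.13, limma adjusted p = 0.0137). The median over the 21 was -0.051 at day 4 and 0 at day 8.

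Transcripts that start within 5 kb of a member on the other strand were few and mostly low. C5orf38, which starts 469 bases from IRX2 and is known for its coordinated expression with it, had 8.76 and 6.86 TPM in wild type and 15.7 and 11.7 TPM for S13 and S23 at day 4. At day 8 it had 7.72 and 5.01 TPM against 4.21 and 5.33 TPM, so the groups were apart at day 4 and overlapped at day 8. At day 0 it had 3.49 and 2.56 TPM against 3.70 and 8.38 TPM, a log2 difference of 0.73 that did not pass (limma adjusted p = 0.926), where IRX2 had 0.25. The day 4 difference did not pass (log2 0.73, SE 0.34, limma adjusted p = 0.330). Like IRX2, C5orf38 fell from day 4 to day 8 in S13 and S23, by 1.34 (SE 0.34, limma adjusted p = 0.0228). The ratio of IRX2 to C5orf38 was between 1.14 and 2.80 in all 12 libraries.

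CRNDE, a long noncoding RNA of neural progenitors and tumours, starts 1673 bases from IRX5 and was far more abundant. It had 2.32 and 3.45 TPM in wild type and 1.44 and 2.15 TPM for S13 and S23 at day 0, 101 and 114 TPM against 89.8 and 136 TPM at day 4, and 139 and 134 TPM against 179 and 241 TPM at day 8. It thus went up with IRX5 over the first step, by 4.82 on the log2 scale in wild type (limma adjusted p = 7.53e-07) and 5.33 in S13 and S23 (limma adjusted p = 5.14e-07). Over the second step it rose in S13 and S23 by 0.90 (limma adjusted p = 0.0270), where IRX5 had -0.53. Of 8 transcripts that start within 5 kb of a member on the other strand, the other 5, known by clone names, stayed under 1 TPM in every library, with 0.893 TPM as their highest value.

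The other genes of the TALE class (MEIS, PBX, PKNOX and TGIF genes and MKX), 12 in the table of which 11 were tested, gave a comparison within the class. At day 4, 0 of 11 were called between the genotypes, with 5 at an unadjusted p under 0.05, and the limma median was -0.32, against 0.67 for the Iroquois genes, and 0.775% of all genes were called. At day 8, 1 of 11 was called, TGIF1, a repressor of nodal and retinoid responses, which had 94.0 and 75.9 TPM in wild type and 132 and 139 TPM for S13 and S23 (log2 0.67, SE 0.14, limma adjusted p = 0.0437), where 2.79% of all genes were called. From day 0 to day 4, 10 of 11 were called higher in each genotype, with medians of 1.74 and 1.33, over a step in which 65.7% and 60.6% of all genes were called and the medians of all genes were 0.91 and 0.72.

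Some genes of forebrain regions also differed between the genotypes. Of 22 caudal forebrain and midbrain genes, 14 were tested. At day 4, 4 were called higher in S13 and S23 and 0 lower (limma median 0.72, against -0.12 for all genes, of which 0.775% were called). At day 8, 5 were called higher and 0 lower (median 0.77, with 2.79% of all genes called). At day 4 these were WNT8B, a ligand of the caudal forebrain, with a log2 difference of 3.69, and the transcription factor genes FOXB1 (3.02), DBX1 (2.97) and OTX1 (2.27). At day 8 WNT8B stood at 7.40, OTX1 at 2.97, BARHL1 at 2.96 and FOXB1 at 2.60. Not all genes of this list went the same way. From day 0 to day 4 the log2 change of TCF7L2 was -1.15 in wild type and -2.25 in S13 and S23. That of FGF8 was 5.23 in wild type and 4.01 in S13 and S23. Neither was called between the genotypes. Of 12 tested rostral forebrain and eye field genes, 2 were called higher and 3 lower at day 4 (median -0.47), and 2 higher and 4 lower at day 8 (median -0.76), against the same shares of all genes. The log2 differences of called genes included EMX2 (2.87), FEZF2 (2.54), RAX (-1.89) and LHX2 (-1.78) at day 4, and EMX2 (2.44), SIX3 (-2.29) and VAX2 (-2.05) at day 8. SIX3 and IRX3 lay on opposite sides at day 8, with SIX3 at 46.0 and 58.2 TPM in wild type against 12.2 and 7.79 TPM.

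Markers of other tissues that use Iroquois genes were low or moved with the groups as follows, and their part in the Iroquois values was not tested. Of 15 hindbrain and spinal cord genes, 14 stayed under 1 TPM in all 12 libraries and the sum was 0.604 to 2.22 TPM. The 8 endoderm genes all stayed under 1 TPM, with SOX17 listed at 0 throughout. Of 10 cardiac and lateral mesoderm genes, 7 stayed under 1 TPM, and the sum at day 4 was 5.71 to 6.68 TPM in wild type and 8.67 to 21.1 TPM for S13 and S23, most of it KDR, a receptor of endothelial and other cells, at 19.4 TPM in S13. Neural crest genes summed to 13.7 and 18.3 TPM in wild type and 12.9 and 11.9 TPM for S13 and S23 at day 4. At day 8 they summed to 52.2 and 56.5 TPM against 44.2 and 36.5 TPM. SOX9 alone was 42.8 and 44.1 TPM against 27.5 and 26.5 TPM of these day 8 sums. Surface ectoderm and placode genes summed to 47.3 and 48.5 TPM against 47.9 and 32.1 TPM at day 4. At day 8 they summed to 49.8 and 37.7 TPM against 91.0 and 52.6 TPM. KRT19 alone was 38.9 and 24.4 TPM against 76.3 and 45.9 TPM of these day 8 sums. Young neuron genes summed to 188 and 201 TPM in wild type and 83.2 and 111 TPM for S13 and S23 at day 4. This was the day of the largest IRX1 difference. TUBB3 alone was 141 and 157 TPM against 59.4 and 89.0 TPM of these day 4 sums. At day 8 the young neuron genes summed to 248 and 261 TPM against 181 and 123 TPM. The neural crest, surface ectoderm and young neuron sums thus mostly follow 1 gene each and do not measure a tissue.

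Likeness of pattern was measured with Pearson's r of log2(TPM + 1) over the 12 libraries, which share their day and genotype groups and their scaling, and is given as a description. Among the members, IRX1 and IRX3 had the highest r, 0.929, and IRX2 and IRX3 the lowest, 0.761. Over the 8 libraries of days 4 and 8 alone, r was 0.815 for IRX1 with IRX2, 0.822 for IRX2 with IRX5, 0.50 for IRX3 with IRX5 and 0.367 for IRX2 with IRX3. Position in the same cluster thus did not order the pairs. Among 11856 protein-coding genes with a mean of at least 5 TPM in a group, those most like IRX1 were EMC6 (0.974), EMC7 (0.972) and NUDCD1 (0.969). The list for IRX2 was headed by DBX1 (0.959), RPF2 (0.955) and UBE2F (0.9497), and that for IRX3 by NCK1 (0.977), GNG12 (0.972) and LHX5 (0.962). Those most like IRX5 were WDFY1 (0.981), B3GNT2 (0.9747) and CNTN2 (0.970).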

How the data were processed

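Poly(A) RNA-seq of H9 cells gave 12 libraries in 6 groups of 2, assigned from the labels. The deposited table holds TPM per gene, which the authors made from reads called by CASAVA 1.7, using Salmon 0.8.2 and build hg38, per the submitters' processing notes. The sources used here do not give the annotation release, the use of strand or the sequencer of each library. TPM keeps no read number, so depth and the precision it gives are unknown. No column belonged to other samples, and reads were not reanalysed.

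Genes with at least 1 TPM in at least 2 libraries (24248 of 58219) were tested with limma 3.58.1 (R 4.3.3) after log2 transformation with a pseudocount of 1. A model with 6 group means over 12 libraries (6 residual and 2.29 prior degrees of freedom) used moderated variances with a trend, two-sided tests and Benjamini-Hochberg adjustment over all genes tested within each of 9 comparisons at 0.05. Each adjusted p is from limma, and the number of libraries per group is 2. Comparisons that share libraries are not independent of each other.

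The members, gene lists and tests were chosen with earlier results of these data known. The 6 members and SOX21 were always named. Neighbours within 500 kb were named where called between genotypes or where their start lay within 5 kb of a member's on the opposite strand, TALE genes where called between genotypes, list members as up to 4 of the largest called differences, and for each tested member the 3 genes most like it. A result that this rule would name is not reported here. The values of SIX3 beside IRX3 and of KDR, SOX9, KRT19, TUBB3, TCF7L2 and FGF8 were added after they were seen. Positions came from GENCODE v29 (GRCh38), to which 57881 identifiers matched without version, and promoters from RefSeq (GRCh38.p14). Alternatives were a pseudocount of 0.1, no filter or a filter at 5 TPM, 3 other scalings, other variance settings, only the days compared, the line label as a block and each library left out. Line labels did not pair the libraries across days: the correlation of their deviations from the group means ran from -0.0060 to 0.071 over 6 pairs of days.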

Additional observations from a re-analysis of the deposited data

Results flagged for a closer look

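Of 16 summed levels, shares and ratios that were looked at, 3 turned between the days: every SOX21-/- library lay on one side of the wild-type libraries at day 4 and on the other side at day 8. These differences between the days were not tested. The IRXA share of the family's TPM, SOX21-/- minus wild type, was 6.43 percentage points at day 4 and -10.2 at day 8. The IRX3 share was -3.80 percentage points at day 4, with means of 13.3% in wild type and 9.52% in SOX21-/-, and 9.12 at day 8, with means of 12.03% and 21.2%. The IRX3 to IRX1 ratio differed by -0.383 at day 4 and by 0.168 at day 8. The 3 measures come from the same TPM values and are not independent of each other.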

How the results depend on the processing

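Calls near the threshold moved with the processing. At day 4 between the genotypes, 1 member was called, and 2 with a filter at 5 TPM, median-of-ratios scaling, quantile normalization or nuclear protein-coding genes only, where IRX2 joined with limma adjusted p of 0.0493, 0.0477, 0.0380 and 0.0464. With only the day 4 libraries 0 were called, and with each library left out 0 to 1. At day 8 the count went from 0 to 1 with nuclear protein-coding genes only. For wild type from day 4 to day 8 it went from 0 to 1 without the trend (IRX5, limma adjusted p = 0.0426). For SOX21-/- from day 4 to day 8, 2 were called and 1 to 2 with a library left out. IRX5 joined that step with quantile normalization (-0.90, limma adjusted p = 0.0145) and without the trend (-0.53, limma adjusted p = 0.0413).

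Signs turned for IRX2 in wild type from day 0 to day 4, to -0.52 with median-of-ratios scaling (limma adjusted p = 0.0116) and -0.18 with quantile normalization. The other turns were in values that passed no test: IRX3 in SOX21-/- from day 4 to day 8, -0.059 and -0.25 under these scalings and -0.059 to 0.35 with a library left out; the IRX5 interaction from day 4 to day 8, -0.058 and -0.20, and -0.075 to 0.25 with a library left out. With a library left out, IRX1 in wild type from day 4 to day 8 ran from -0.32 to 0.14, and IRX2 between the genotypes at day 8 from -0.0057 to 0.10. The cause was not tested.

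As a replicate block, the line label was a random effect (correlation -0.0090) in the genotype comparisons only. It was fixed, with 4 residual degrees of freedom, in the day and interaction comparisons only. No call of a member changed: 1 was called between the genotypes at day 4 and 2 in SOX21-/- from day 4 to day 8. The labels pair no libraries across genotypes, and 2 libraries per group and an unknown read number limit every value.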
